A study of Mus musculus with 2 samples.

Results

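Regulated exocytosis, the release of stored vesicles on a calcium signal, was described from the transcripts of its machinery in the mouse adrenal gland. The 48 genes were chosen by symbol, and 47 of them were found among the 55536 genes measured; Vamp7 is not analysed here. The samples were adrenal glands of male B6CASTF1/J mice, F1 hybrids of C57BL/6J and CAST/EiJ, aged 36 days; the labels name no engineered allele and no treatment. Total RNA, 300 ng for each library, was depleted of ribosomal RNA and sequenced with strand information and added spike-in RNA. Replicates 2 and 1 form the only group, so there is no contrast of conditions, and what can be given is the level of each gene, its spread over both libraries and the ratio between them. The labels of the biosamples name a different animal for replicate 2 and for replicate 1, whereas the labels of the libraries name the same animal for both, so separate animals are not certain and the spread may be partly technical.

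Chromaffin cells of the adrenal medulla store catecholamines and peptides in dense-core granules and release them when calcium enters the cell. Rab GTPases and their effectors bring the granule to the membrane, Munc13 and CAPS proteins prime it, and a vesicle SNARE (VAMP) zips together with a syntaxin and a SNAP-25 family protein to fuse the membranes. Complexins clamp and assist that complex, and Doc2 proteins and those synaptotagmins that bind calcium sense it. Other SNAREs of the same families serve secretion and membrane traffic that run in most cells, cortical steroid cells included.

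Replicate 2 held 30628771 expected counts in all and replicate 1 held 35813366. Both libraries carried the markers of the labelled tissue: 8 adrenal cortex genes summed to 8842 TPM in replicate 2 and 16123 TPM in replicate 1, and 15 chromaffin cell genes to 2173 TPM in replicate 2 and 1979 TPM in replicate 1, all 23 of them at 1 TPM (a level per unit of transcript length, made relative to the whole library) or more in each. Replicate 2 stands apart by RNA of other organs. Its 13 pancreatic acinar markers summed to 8991 TPM, against 20.7 TPM in replicate 1, its 10 pancreatic islet markers to 91.3 TPM, against 0.06 TPM in replicate 1, and its 6 liver markers to 116 TPM, against 13.7 TPM in replicate 1. Acinar and islet cells are themselves secretory; the part of their RNA in the levels of replicate 2 was not tested, and values are given for each library. In bulk tissue, fewer cells of a type and less RNA per cell cannot be told apart.

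Most of the machinery was detected. Of the 47 genes, 35 reached 1 TPM in both libraries. So did 11526 of all 22015 nuclear protein-coding genes and 12548 of all 55536 genes. Together the 47 genes summed to 312 TPM in replicate 2 and 388 TPM in replicate 1 (mean 350 ± 53.7, SD, n = 2). By mean TPM, 5 genes lay at 20 or above, 8 between 10 and 20, 9 between 5 and 10, 14 between 1 and 5, and 11 under 1. Deposited TPM ran lower in replicate 2 for most genes, with a median log2 ratio of -0.39 over the 14780 genes with a mean CPM (counts relative to the library total) of at least 1; nuclear protein-coding genes took 23.2% of all TPM in replicate 2 and 31.0% in replicate 1. Rescaled to those protein-coding genes, the module summed to 1341 TPM in replicate 2 and 1248 TPM in replicate 1. Levels below are the deposited TPM, whereas ratios between the libraries are log2 values of replicate 2 over replicate 1 from counts scaled by the trimmed mean of M-values (TMM), with exact 95% limits that cover counting error only. Where scaling the libraries by their spike-in counts changes a direction, that value is given beside it as the spike-in scale. Scaling by total counts changed the direction of a few ratios near 0, given below for the module as a whole.

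**Figure D1:**
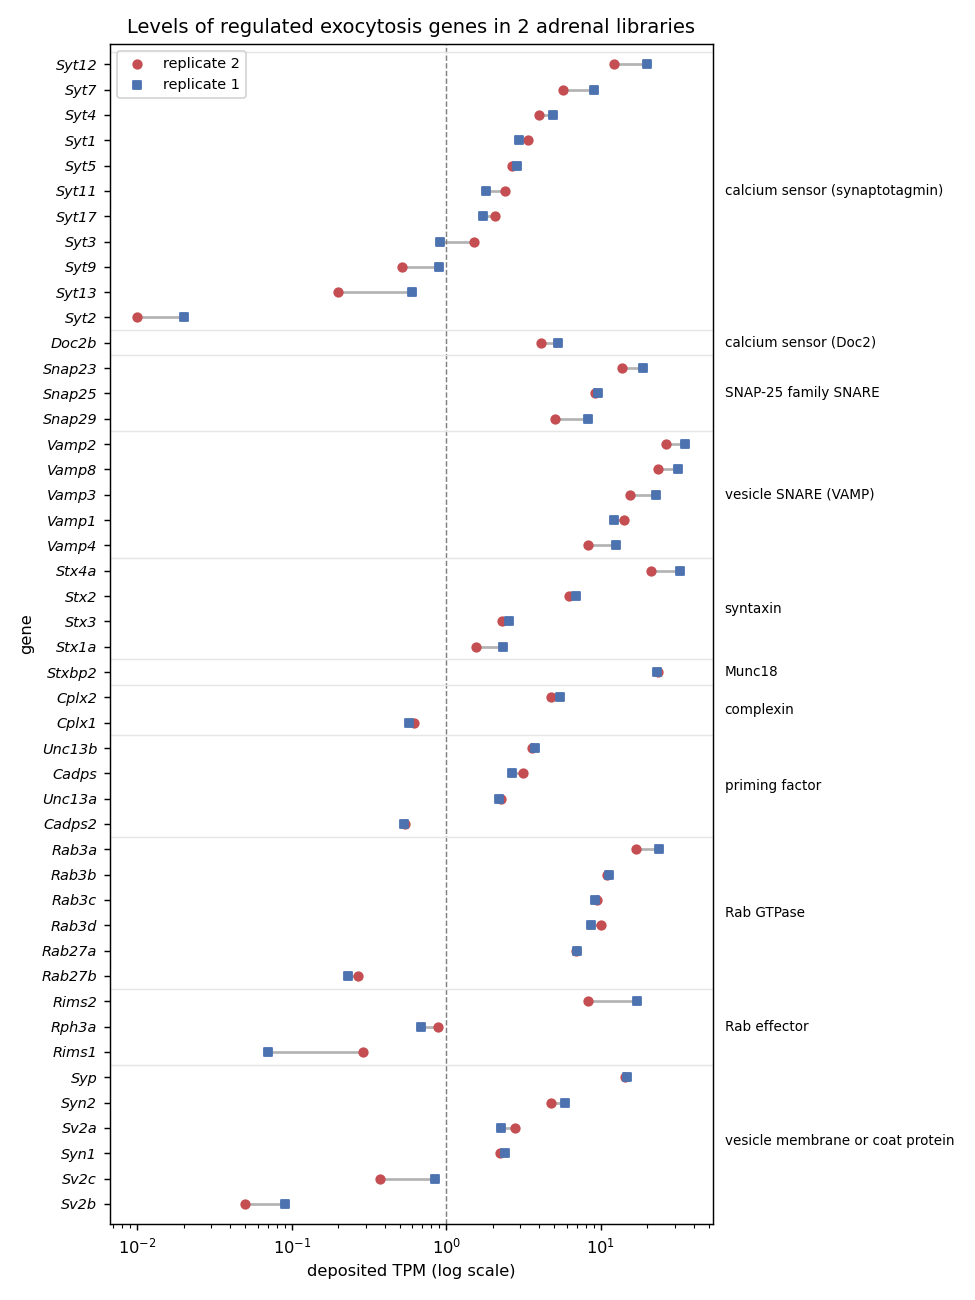
Deposited TPM (log axis) of each exocytosis gene in replicate 2 (circles) and replicate 1 (squares), grouped by the role of the protein, with a dashed line at 1 TPM; Syt6, at 0 in both libraries, is left out. The vesicle SNAREs hold 3 of the 6 genes with the highest mean level, and the synaptotagmins run from 0.01 TPM for Syt2 to 19.97 TPM for Syt12.

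Among the synaptotagmins, Syt12 and Syt7 stood above the others in both libraries. Syt12 (ENSMUSG00000049303.10, chromosome 19, 4445908 to 4477447 on mm10), a synaptotagmin whose C2 domains lack calcium-binding residues, had 12.22 TPM in replicate 2 and 19.97 TPM in replicate 1. Syt7, a high-affinity calcium sensor of dense-core granules, had 5.69 TPM in replicate 2 and 8.99 TPM in replicate 1. Syt12 was the higher of the pair in each library, and the ranges of both lay above every other synaptotagmin.

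Syt1, the fast sensor of synapses and chromaffin granules, had 3.39 TPM in replicate 2 and 2.97 TPM in replicate 1. Inside each library, the level of Syt1 was 0.596 times that of Syt7 in replicate 2 and 0.330 times in replicate 1 (mean 0.463 ± 0.188, SD, n = 2). Syt7 was thus the more abundant transcript in each library, by an amount that varied between them. Syt4, a sensor-like protein of granules that does not bind calcium in the usual way, lay at 3.97 TPM in replicate 2 and 4.90 TPM in replicate 1, and Doc2b, a soluble high-affinity sensor, at 4.08 TPM in replicate 2 and 5.27 TPM in replicate 1. The ranges of these 2 genes overlap.

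The next synaptotagmins, Syt5, Syt11, Syt17 and Syt3, had mean levels of 2.75, 2.09, 1.89 and 1.22 TPM. Syt9, a sensor of granules in endocrine lines, had 0.52 TPM in replicate 2 and 0.90 TPM in replicate 1. Others were at or near 0. Syt2, the fast sensor of hindbrain and neuromuscular synapses, had 1 count in replicate 2 and 3 counts in replicate 1, and Syt6 had 0 counts in both. A count of 0 allows up to 0.0994 CPM in replicate 2 and 0.0845 CPM in replicate 1 (3 counts of the library).

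Among the 43 members with a mean CPM of at least 1, Syt13 was the only 1 at least 2-fold apart between the libraries. With no filter, 2 of 46 were, 1 higher and 1 lower in replicate 2, beside 28.9% of all genes. Syt13 (ENSMUSG00000027220.2, chromosome 2, 92915098 to 92956058), an atypical synaptotagmin that lacks calcium-binding residues, had 28 counts in replicate 2 and 78 counts in replicate 1, or 0.20 TPM in replicate 2 and 0.60 TPM in replicate 1. Its log2 ratio was -1.17 (95% limits -1.87 to -0.55), so the limits also hold differences under 2-fold. In the second transcript file, derived from the reads without the alignment behind the gene table, the log2 ratio was -0.58 and passed no threshold. Across all tested genes 6.87% were at least 2-fold apart, 5.13% higher and 1.74% lower in replicate 2. That share falls with the count level, to 3.14% at a mean CPM of at least 5. A count of 1 among 43 tested members, with 0 higher, is too small to tell the module from that background. The Syt13 difference has no replicate check, since each side is 1 library, and no p-value is given.

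The membrane SNAREs were led by members of general use. Stx4a (ENSMUSG00000030805.14, chromosome 7, 127824294 to 127849019), a plasma membrane syntaxin of many cell types, had 21.13 TPM in replicate 2 and 32.58 TPM in replicate 1. Stx2, a syntaxin of epithelial secretion, had 6.26 TPM in replicate 2 and 6.90 TPM in replicate 1. Stx3, which serves apical and granule fusion, averaged 2.42 ± 0.184 TPM, and Stx1a, the neuronal and neuroendocrine syntaxin, averaged 1.94 ± 0.552 TPM (SD, n = 2 each). Stx1a lay below Stx2 and Stx4a in each library, and its range overlapped that of Stx3. Stxbp2 (chromosome 8, 3630955 to 3643644), the Munc18-2 protein that escorts syntaxins in epithelial and blood cells, had 23.29 TPM in replicate 2 and 22.95 TPM in replicate 1.

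Among SNAP-25 family proteins, Snap23, the form used by most cells, was above Snap25, the neuronal and neuroendocrine form. Snap23 had 13.69 TPM in replicate 2 and 18.65 TPM in replicate 1, Snap25 had 9.13 TPM in replicate 2 and 9.61 TPM in replicate 1, and Snap29, a form of endosomes and autophagosomes, had 5.05 TPM in replicate 2 and 8.23 TPM in replicate 1. The order of the 3 genes was the same in both libraries. The ratio of Snap25 to Snap23 was 0.667 in replicate 2 and 0.515 in replicate 1 (mean 0.591 ± 0.107), and 0.351 in mean in the second transcript file, where the Snap23 level was higher by 0.71 on the log2 scale after rescaling. The direction held in both files, and the size depended on the file. Protein-coding transcripts took 69.8% of the Snap23 TPM in replicate 2 and 66.2% in replicate 1. For Snap25 they took 95.9% in replicate 2 and 97.4% in replicate 1, so the coding levels of the 2 genes lay closer together than the gene levels.

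Snap25 makes a pair of proteins from alternative coding exons, and the exons are shown because both were in use at similar shares. The upstream exon (Snap25-202, chr2:136769743-136769860, plus strand, mm10) is the type called SNAP-25a, and the downstream exon (Snap25-201, chr2:136770057-136770174, plus strand) the type called SNAP-25b. Each is 118 bases long, and capitals mark the 31 bases that differ; 9 of the 206 residues differ between the proteins. Sequences are from GENCODE M21 transcripts, written 5′ to 3′.
Snap25-202: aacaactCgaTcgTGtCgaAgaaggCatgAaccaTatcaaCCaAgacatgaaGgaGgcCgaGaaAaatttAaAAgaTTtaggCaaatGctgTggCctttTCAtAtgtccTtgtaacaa
Snap25-201: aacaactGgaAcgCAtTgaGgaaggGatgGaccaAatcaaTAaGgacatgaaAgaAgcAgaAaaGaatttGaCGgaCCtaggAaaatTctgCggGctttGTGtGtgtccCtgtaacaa

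The form with the upstream exon, Snap25-202, took 48.4% of the Snap25 TPM in replicate 2 and 45.2% in replicate 1. The form with the downstream exon, Snap25-201, took 47.5% in replicate 2 and 52.2% in replicate 1. In the second transcript file the upstream form took 51.0% in replicate 2 and 47.3% in replicate 1, and the downstream form took 45.3% in replicate 2 and 50.4% in replicate 1. By TPM the leading form thus changed between the libraries in both files, with differences of a few percent of the gene. By counts, before division by length, Snap25-201 led in both libraries and both files, in the first with 340 counts in replicate 2 and 358 in replicate 1, against 157 and 140 for Snap25-202 in replicates 2 and 1. The annotated forms also end differently, with last exons of 277 bases in Snap25-202 and 1354 bases in Snap25-201, so the shares rest on reads of the last exon as well as on the alternative exon.

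Vesicle SNAREs were the most abundant role in the module, summing to 87.6 TPM in replicate 2 and 114 TPM in replicate 1 over 5 genes. Vamp2 (ENSMUSG00000020894.16, chromosome 11, 69088490 to 69092384), synaptobrevin 2 of synaptic and chromaffin vesicles, had 26.45 TPM in replicate 2 and 35.09 TPM in replicate 1. Vamp8, endobrevin, which serves exocrine, platelet and mast cell secretion, had 23.39 TPM in replicate 2 and 31.36 TPM in replicate 1. The ratio of Vamp2 to Vamp8 was 1.13 in replicate 2 and 1.12 in replicate 1 (mean 1.12 ± 0.0084). Of the 7 pairs of related genes compared inside a library, this one varied least between the libraries in the gene table; in the second transcript file it was 1.21 in replicate 2 and 1.14 in replicate 1, and Cplx2 over Cplx1 was closer, at 7.36 in replicate 2 and 7.68 in replicate 1.

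Vamp3, cellubrevin of recycling endosomes, had 15.37 TPM in replicate 2 and 22.61 TPM in replicate 1. Vamp4, of the Golgi and endosomes, had 8.25 TPM in replicate 2 and 12.49 TPM in replicate 1. Vamp1, synaptobrevin 1, had 14.12 TPM in replicate 2 and 12.14 TPM in replicate 1. Noncoding transcripts of the gene took 23.4% of that level in replicate 2 and 29.9% in replicate 1. Vamp1 was the 1 vesicle SNARE with a higher deposited TPM in replicate 2, and its log2 ratio from scaled counts was 0.61 (0.50 to 0.72), against 0.01 for Vamp2, 0.02 for Vamp8, -0.14 for Vamp4 and -0.16 for Vamp3. On the spike-in scale all 5 were below 0, with Vamp1 at -0.28 and the others from -1.05 to -0.88.

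The leading Vamp1 transcript, Vamp1-203, reads through a splice site near the end of the protein, and that end is shown because this form led in both libraries and both files. In the last coding exon (chr6:125219586-125219648, plus strand, mm10) the first 52 coding bases, in lower case, are shared with Vamp1-201, and the 11 bases in capitals lie past the end of the Vamp1-201 exon. Vamp1-201 has 14 coding bases in a further exon instead.
Vamp1-203: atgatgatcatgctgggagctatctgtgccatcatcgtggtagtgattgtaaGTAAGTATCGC

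Vamp1-203 took 42.6% of the Vamp1 TPM in replicate 2 and 39.0% in replicate 1, and in the second transcript file 46.1% in replicate 2 and 41.1% in replicate 1. Vamp1-201 took 17.2% in replicate 2 and 18.0% in replicate 1. The proteins they code have 117 residues (Vamp1-203) and 118 residues (Vamp1-201) and differ at the carboxy-terminal end. The last exon of Vamp1-203, of 2578 bases, holds the stretch spliced out of Vamp1-201 and overlaps its last exon of 2257 bases. RNA not yet spliced there can be assigned to Vamp1-203, so its share need not be that of a finished form. For Vamp2, the leading form Vamp2-201 took 61.9% in replicate 2 and 62.1% in replicate 1.

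**Figure D2:**
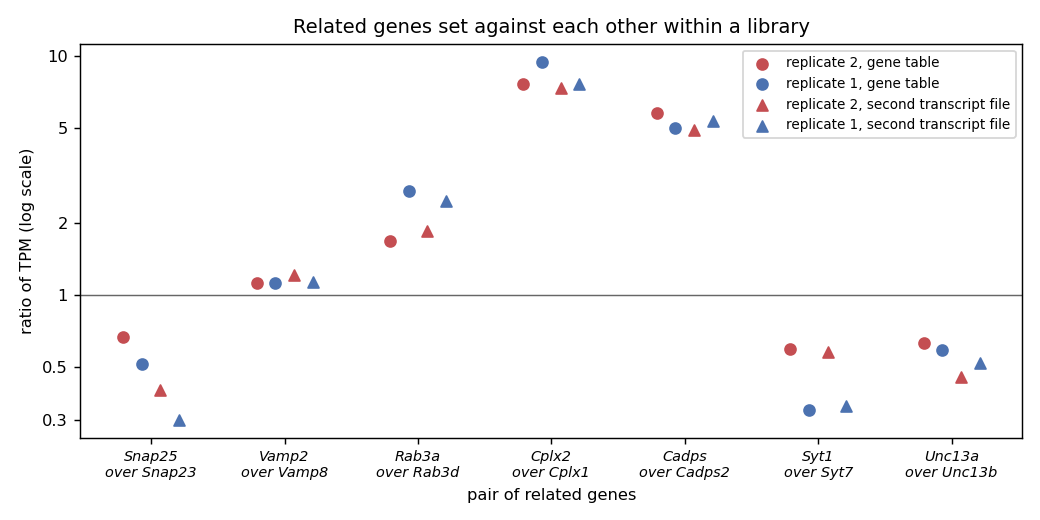
Ratio of the TPM of 2 related genes (log axis, line at 1) inside replicate 2 (red) and replicate 1 (blue), from the gene table (circles) and the second transcript file (triangles). Snap25 over Snap23, Syt1 over Syt7 and Unc13a over Unc13b lie under 1 in both libraries and both files, and the other 4 pairs lie above 1.

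Of the complexins, Cplx2 prevailed. Cplx2, the main complexin of chromaffin cells, had 4.74 TPM in replicate 2 and 5.41 TPM in replicate 1, and Cplx1 had 0.62 TPM in replicate 2 and 0.57 TPM in replicate 1. The ratio of Cplx2 to Cplx1 was 7.65 in replicate 2 and 9.49 in replicate 1 (mean 8.57 ± 1.31), resting on 50 Cplx1 counts in replicate 2 and 36 in replicate 1. Of the priming factors, Cadps (CAPS1, needed for granule loading and priming) had 5.8 times the level of Cadps2 in replicate 2 and 5.0 times in replicate 1 (mean 5.40 ± 0.563). Unc13a (Munc13-1) stood at 0.628 times the level of Unc13b (Munc13-2) in replicate 2 and 0.587 times in replicate 1 (mean 0.607 ± 0.0287). The priming factors were low as a role, between 0.535 TPM for Cadps2 and 3.67 TPM for Unc13b in mean.

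All 4 priming factors and both complexins had log2 ratios above 0 on the TMM scale, with 0.66 for Cadps (0.45 to 0.86), 0.73 for Cadps2 (0.26 to 1.22) and 0.76 for Cplx1 (0.12 to 1.42), none of which reached 2-fold; on the spike-in scale these 6 ratios were below 0. Their medians were 0.51 for priming factors and 0.49 for complexins, beside 0.40 for the 15 chromaffin cell markers (-0.49 on the spike-in scale) and 0.01 for all tested genes.

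Of the 6 Rab GTPases that mark secretory granules, 5 lay above 5 TPM in both libraries, and Rab27b lay under 1 TPM in both. Rab3a, the main Rab3 of neurons and chromaffin cells, had 16.79 TPM in replicate 2 and 23.62 TPM in replicate 1. Rab3b had 10.94 TPM in replicate 2 and 11.34 TPM in replicate 1, and Rab3c had 9.38 TPM in replicate 2 and 9.18 TPM in replicate 1. Rab3a was the highest in both libraries.

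Rab3d, the Rab3 best known from exocrine granules, had 9.94 TPM in replicate 2 and 8.62 TPM in replicate 1. Rab3c lay inside that range in both libraries. The retained-intron form Rab3d-205 took 37.6% of the Rab3d TPM in replicate 2 and 5.57% in replicate 1, from 48 and 6 counts. It had 0 TPM in both libraries of the second transcript file. How Rab3c and Rab3d compare, and which library had more Rab3d, therefore depends on that form. The ratio of Rab3a to Rab3d was 1.69 in replicate 2 and 2.74 in replicate 1 (mean 2.21 ± 0.743). In the second transcript file it was 1.85 in replicate 2 and 2.48 in replicate 1. The margin of Rab3a was wider in replicate 1 in both files, but in the gene table its size also depends on Rab3d-205. Rab27a, which tethers dense-core granules to the cell cortex, had 6.92 TPM in replicate 2 and 7.01 TPM in replicate 1; its exons overlap those of Gm27186 on the same strand. Rab27b averaged 0.25 ± 0.0283 TPM, below Rab27a in each library.

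The log2 ratios of Rab3b, Rab3c, Rab3d and Rab27a lay together at 0.35, 0.39, 0.32 and 0.38, with limits above 0 for all 4, whereas Rab3a had -0.08 (-0.21 to 0.05). On the spike-in scale the same 4 genes had values from -0.57 to -0.51 and Rab3a had -0.97.

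Among Rab effectors, Rims2 was the abundant one and, of the members at a mean of 5 TPM or more, the one whose deposited TPM differed most between the libraries as a ratio. Rims2 (ENSMUSG00000037386.16, chromosome 15, 39198261 to 39684372), a scaffold of release sites, had 987 counts in replicate 2 and 1848 counts in replicate 1, or 8.29 TPM in replicate 2 and 17.20 TPM in replicate 1. Its log2 ratio was -0.62 (-0.73 to -0.50), a 1.53-fold lower level in replicate 2. The adrenal cortex markers stood lower in replicate 2 as well, all 8 of them, with a median log2 ratio of -0.42; how far the Rims2 value moves with the share of cortex was not tested.

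Most of the Rims2 TPM was assigned to short forms that start far inside the gene. The leading transcript in both libraries and both files, Rims2-204, codes 285 residues, and none of the bases of its first coding part (chr15:39659785-39659926, plus strand, mm10) lie in an exon of the 4 long coding forms. That part is shown, 5′ to 3′ and all in lower case, because it sets the short form apart from the long ones.
Rims2-204: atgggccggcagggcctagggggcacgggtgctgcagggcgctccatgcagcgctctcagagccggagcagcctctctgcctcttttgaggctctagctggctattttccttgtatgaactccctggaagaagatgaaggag

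The 2 transcripts with this start, Rims2-204 and Rims2-207, summed to 5.53 TPM in replicate 2 and 14.3 TPM in replicate 1. The 4 long coding forms, of 3889 to 4716 coding bases, summed to 1.78 TPM in replicate 2 and 2.34 TPM in replicate 1. The short-start forms thus took 66.6% of the Rims2 TPM in replicate 2 and 82.9% in replicate 1, and in the second transcript file 63.6% in replicate 2 and 76.8% in replicate 1. The gap between the libraries was wider in the short-start forms, with 627 counts in replicate 2 and 1444 counts in replicate 1, than in the long forms, with 318 counts in replicate 2 and 381 counts in replicate 1. The last exon of Rims2-204 runs 1919 bases past the end of every other form, and reads there can be assigned to Rims2-204 alone. That exon makes up 2827 of its 3685 bases, so RNA of a long form with the same end would also be counted as Rims2-204. Reads of the distinct start were not counted apart. The shares and the wider gap thus rest on the last exon as well as on the start.

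Rims1, the RIM of most central synapses, had 25 counts in replicate 2 and 6 counts in replicate 1, under the filter of a mean CPM of 1. Rph3a (rabphilin, an effector of Rab3 and Rab27) averaged 0.785 ± 0.134 TPM. Its leading transcript differed between the libraries: Rph3a-201 had 118 counts in replicate 2 and 0 in replicate 1, and Rph3a-204 had 0 counts in replicate 2 and 97 in replicate 1. Both transcripts have 2043 coding bases, and the same exchange of leading forms appeared in the second transcript file, at 68.0% for Rph3a-201 in replicate 2 and 64.9% for Rph3a-204 in replicate 1. The programs gave each form a share of reads, so at these counts the exchange is a description of their output.

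**Figure D3:**
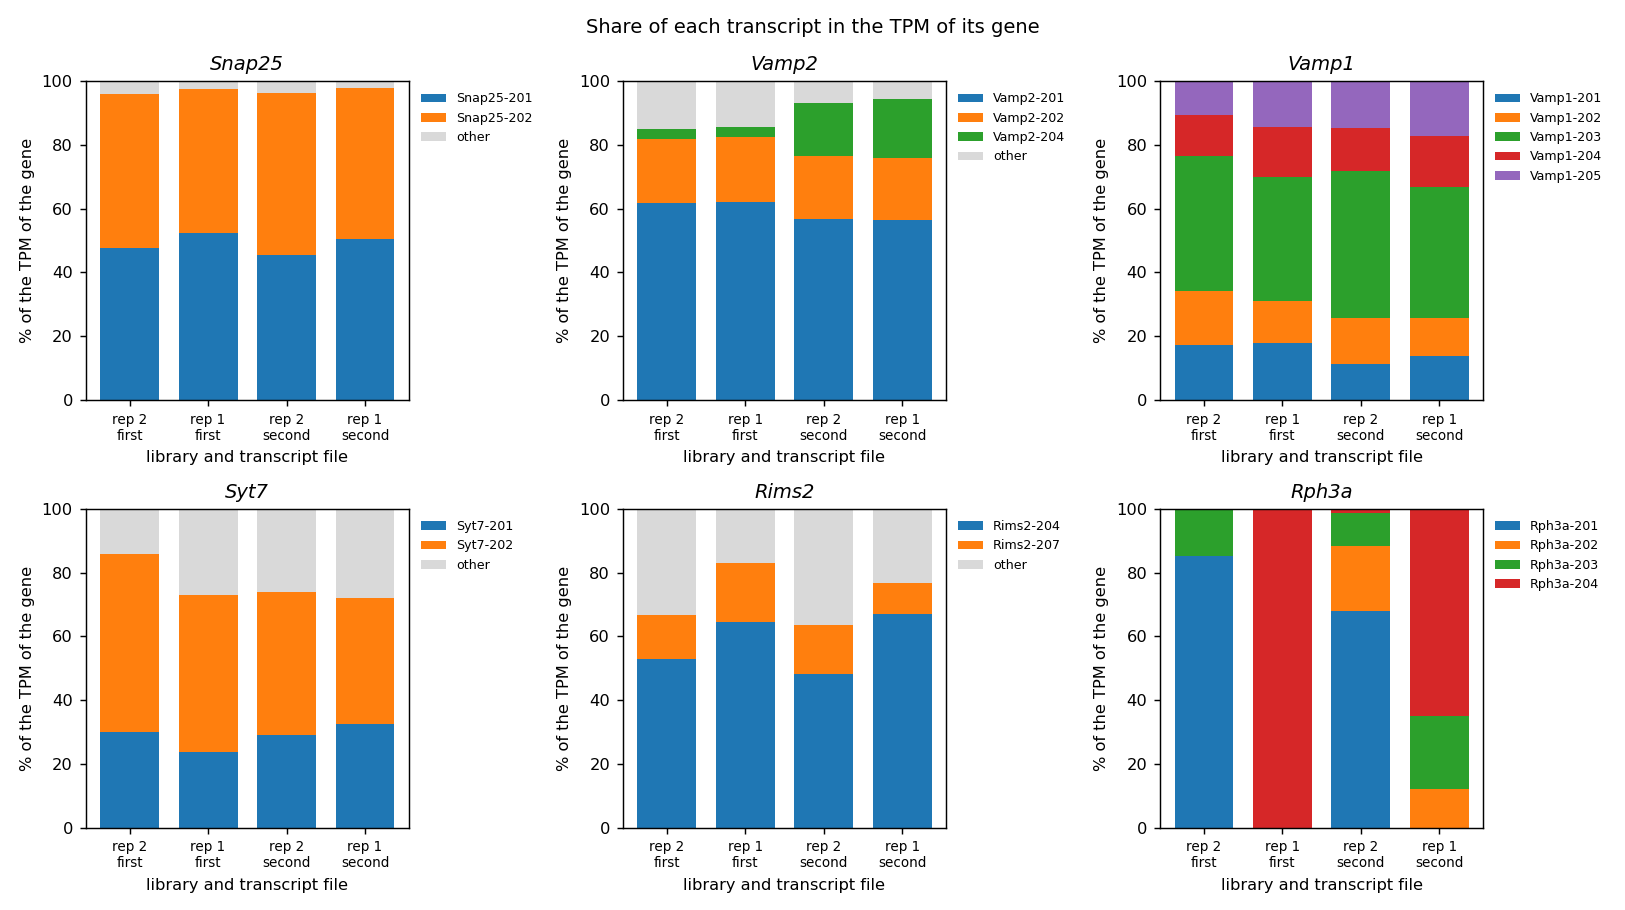
Share of each transcript in the TPM of its gene (percent) for 6 genes, in replicate 2 and replicate 1 of the first transcript file and then of the second; forms under 15% in every column are pooled as other. The bars of Snap25, Vamp2 and Vamp1 are alike in both libraries, those of Rims2 differ in the share of Rims2-204, and Rph3a changes its leading form.

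Vesicle membrane and coat proteins were led by Syp. Syp (synaptophysin, a membrane protein of small clear vesicles) had 14.22 TPM in replicate 2 and 14.69 TPM in replicate 1. Syn2 (synapsin 2, a vesicle coat protein) had 4.72 TPM in replicate 2 and 5.90 TPM in replicate 1, and Syn1 averaged 2.32 ± 0.106 TPM. Of the SV2 glycoproteins, Sv2a averaged 2.51 ± 0.361 TPM, Sv2c 0.605 ± 0.332 TPM and Sv2b 0.07 ± 0.0283 TPM, the same order in both libraries. The 8 neuron markers summed to 4.37 TPM in replicate 2 and 6.13 TPM in replicate 1, with Chat at 0 in both. Which cells the vesicle protein transcripts came from was not tested.

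Across the module, 43 genes passed the filter and 4 did not (Syt2, Syt6, Sv2b and Rims1). The median log2 ratio of the 43 was 0.32, with 31 above 0 and 12 below, beside 0.01 for all 14780 tested genes, of which 7558 lay above 0 and 7222 below. Limits excluded a ratio of 1 on the higher side for 23 genes, on the lower side for 8, and held it for 12. With spike-in scaling, 2 of the 43 ratios lay above 0 and 41 below, and the limits excluded a ratio of 1 on the higher side for 0 genes and on the lower side for 36. Scaled by total counts, 28 lay above 0 and 15 below. Vamp2, Vamp8 and Syn2 then turned from 0.01, 0.02 and 0.03 to -0.04, -0.04 and -0.02. The counts by limits, and the counts on these scales, were not made over all tested genes. They are therefore given without a background. At 1.5-fold, 11 of 43 were apart, 9 higher and 2 lower in replicate 2, beside 17.3% of all tested genes. On the spike-in scale the module had a median of -0.57 and all tested genes -0.88. The gap of 0.31 is the same as on the TMM scale by construction, because a library scale shifts every log2 ratio equally. The gap was 0.27 at a mean CPM of at least 5, 0.18 with no filter and 0.23 in the second transcript file.

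**Figure D4:**
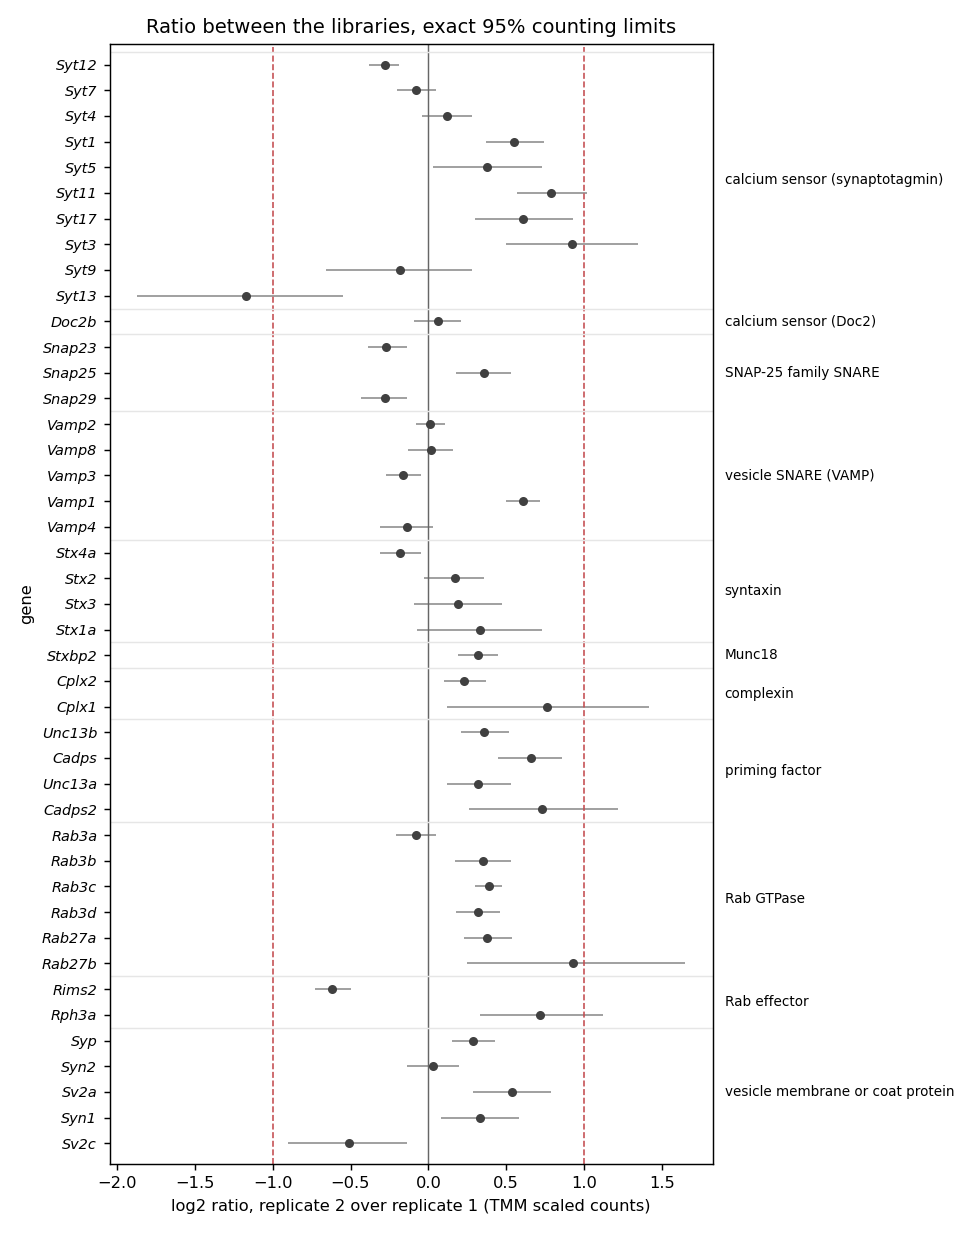
Log2 ratio of replicate 2 over replicate 1 (TMM scaled counts) for the 43 tested genes by role; points are estimates, bars exact 95% counting limits and dashed lines 2-fold either way. Syt13 at -1.17 is the 1 point past a dashed line, and all 4 priming factors lie above 0; on the spike-in scale the priming factors lie below 0.

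By role, the medians were 0.25 for synaptotagmins, -0.27 for the SNAP-25 family, 0.01 for vesicle SNAREs, 0.18 for syntaxins, 0.37 for Rab GTPases and 0.29 for vesicle membrane or coat proteins. Inside families, Snap25 had 0.36, whereas Snap23 had -0.27 and Snap29 -0.28, with limits on opposite sides of 0. Stx1a had 0.33 (-0.07 to 0.73) and Stx4a -0.18 (-0.31 to -0.05), while Stx2 and Stx3 lay between them at 0.17 and 0.19. Vamp2 and Vamp8 did not show such a gap, at 0.01 and 0.02. Among the synaptotagmins, Syt1 had 0.55 (0.37 to 0.74), Syt7 -0.08 (-0.20 to 0.05) and Syt12 -0.28 (-0.38 to -0.19). On the spike-in scale all of these were below 0, with Syt1 at -0.34, Snap25 at -0.54, Snap23 at -1.16 and Syt12 at -1.18.

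Chromaffin cell markers had a median of 0.40, with 14 of 15 above 0, and cortex markers -0.42, with 0 of 8 above 0. On the spike-in scale the chromaffin cell median was -0.49, with 2 of 15 above 0, and the cortex median -1.32. Macrophage and endothelial markers had medians of -0.25 and -0.11, and adipocyte, neuron and Schwann cell markers 0.12, 0.11 and 0.08, which on the spike-in scale became -0.78, -0.79 and -0.82. The 6 mast cell markers summed to 2.88 TPM in replicate 2 and 4.41 TPM in replicate 1. The markers of acinar, islet and liver cells had medians of 13.85, 9.09 and 3.53. The part of any of these cell types in the ratios of the module was not tested.

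**Figure D5:**
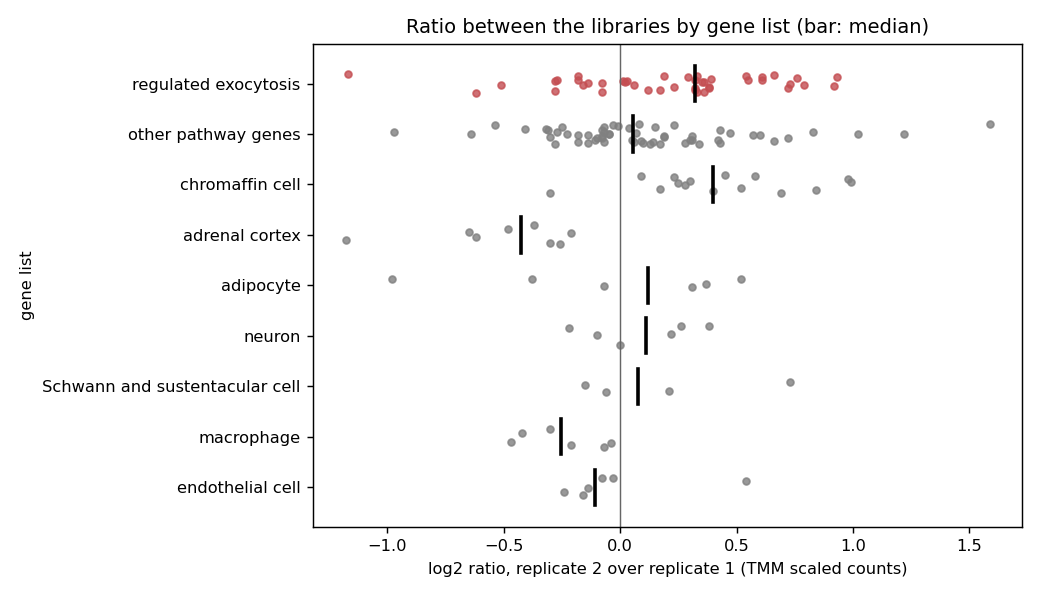
Log2 ratio of replicate 2 over replicate 1 (TMM scaled counts) for tested genes of the module (red) and of other lists (grey); each point is a gene and each bar a median. The module has a median of 0.32, chromaffin cell markers 0.40 and adrenal cortex markers -0.42. Acinar, islet and liver markers, with medians of 3.53 or more, are left out of the plot, and on the spike-in scale the module median is -0.57 and the chromaffin cell median -0.49.

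Of the other genes of the pathway, those with the highest mean TPM were Nsf, Stx7, Napa, Rims4, Sypl and Snap47. Nsf, the ATPase that takes SNARE complexes apart, had 33.10 TPM in replicate 2 and 59.99 TPM in replicate 1, and Napa, its adaptor alpha-SNAP, had 35.43 TPM in replicate 2 and 50.44 TPM in replicate 1. Stx7, a late endosomal syntaxin, had 31.02 TPM in replicate 2 and 60.90 TPM in replicate 1. Each of these 3 was above every gene of the module in both libraries.

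Rims4, a short RIM protein, had 19.61 TPM in replicate 2 and 51.71 TPM in replicate 1, with a log2 ratio of -0.97 (-1.03 to -0.92), close to 2-fold lower and, like Rims2, lower in replicate 2. Sypl, a relative of synaptophysin, had 21.26 TPM in replicate 2 and 30.59 TPM in replicate 1. Snap47, a SNARE related to SNAP-25, had 18.28 TPM in replicate 2 and 23.95 TPM in replicate 1. Of 73 such genes, 58 were tested and 3 were at least 2-fold apart, all higher in replicate 2. The median log2 ratio of the 58 was 0.06 (-0.84 on the spike-in scale). Scaled by total counts, 3 were also apart, but 2 higher and 1 lower.

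The 3 apart on the TMM scale were Syn3, a synapsin, with 114 counts in replicate 2 and 46 in replicate 1 (log2 ratio 1.59), Sytl1, a Rab27 effector, with 48 counts in replicate 2 and 25 in replicate 1 (1.22), and Pclo, the active zone scaffold piccolo, with 1175 counts in replicate 2 and 709 in replicate 1 (1.02). On the spike-in scale their values were 0.70, 0.32 and 0.12, none of them 2-fold. Pclo also fell short of 2-fold with total counts (0.96), with no filter (0.96) and in the second transcript file (0.97). The share apart, 3 of 58, is near the background of 6.87%.

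The transcripts that carried the module were mostly stable between libraries. Of 41 members with several annotated transcripts and TPM in both libraries, 37 had the same leading transcript in both by the first transcript file and 32 by the second, and 27 had 1 leading transcript in both libraries and both files. By TPM in the first transcript file, a protein-coding transcript led in both libraries for 45 of 46 members; the exception was Stx1a, led by Stx1a-204, annotated for nonsense-mediated decay, at 33.8% in replicate 2 and 26.3% in replicate 1. In the second transcript file the retained-intron form Sv2b-203 led Sv2b in replicate 2, and by counts in the first the noncoding Syn2-206 led Syn2 in replicate 2. Syt7-202 led for Syt7 with 55.8% in replicate 2 and 49.3% in replicate 1. More than 25% of the TPM lay in transcripts not annotated as protein-coding for 13 members in replicate 2 and 13 in replicate 1. Retained-intron transcripts of Stxbp2 took 42.8% of its TPM in replicate 2 and 36.0% in replicate 1, and those of Stx4a 29.1% in replicate 2 and 30.2% in replicate 1. The leading transcripts of Snap25, Rph3a, Syt17 and Unc13a differed between the libraries in the first transcript file. The 2 files gave the level of 34 of the 36 members at a mean of 1 TPM or more within 1.5-fold of each other after rescaling, and only Snap23 and Syt3 were higher in the second, by 0.71 and 0.62 on the log2 scale.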

How the data were processed

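Total RNA-seq of 2 adrenal gland libraries of 1 group was used. Per the file headers, tables are on mm10 with GENCODE M21; the programs behind them are not given in the sources used. The deposited gene table and first transcript file hold expected counts from a transcriptome alignment, and the second transcript file holds estimated counts derived from the reads. TPM was deposited as scaled by the authors over every entry, with spike-ins and tRNA among them. Rows naming no gene held 1.50% of counts in replicate 2 and 0.843% in replicate 1 and were left out.

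Genes were matched by symbol. Expected counts were rounded, and library sizes scaled by TMM (edgeR 4.0.16, R 4.3.3; factors 0.982 and 1.019 in replicates 2 and 1) over genes that averaged 1 CPM or more. Log2 ratios added 0.5 to counts. Exact 95% limits for a ratio of 2 counts, and the floor of 3 counts, show counting error alone, because reads that carry no molecular identifier need not be separate molecules. With 1 library on each side no p-value was computed, and a gene was called at 2-fold. The scripts were tested on simulated data. Other steps used Python 3.11.15 (scipy 1.17.1, pandas 2.3.3, numpy 2.4.6, matplotlib 3.10.9).

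Values per library are given for members with a mean of at least 5 TPM or 2-fold apart, for the 6 other pathway genes with the highest mean TPM and for those called; further values were chosen after they were seen. The members and lists were chosen with earlier results of these data known. Counts of 3 members were not whole within 0.01 (Syt11, Snap23 and Vamp3), which marks reads divided among genes. Exons of 1 member overlap another gene on the same strand and those of 14 on the other strand; the strand setting of the counting is not stated, so such reads may not be told apart. Alternatives were DESeq2 1.42.0 size factors, total and spike-in counts, TMM over protein-coding genes or without pancreas and liver markers, other filters, thresholds and added values, the second transcript file, and each replicate left out.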

Additional observations from a re-analysis of the deposited data

How the results depend on the processing

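The 1 member called at 2-fold stayed 1 under DESeq2 size factors, total counts, both other TMM gene sets and 1 added to counts. The count was 10 of 43 (all lower in replicate 2) on the spike-in scale, beside 37.3% of all genes, 2 of 46 with no filter (28.9%), 0 at a mean CPM of 5 (3.14%), 0 in the second transcript file (8.65%), 11 at 1.5-fold (17.3%) and 0 with at least 100 counts in both libraries (2.22%), a setting chosen after seeing the data. For the other pathway genes against the same shares of all genes, the count of 3 became 16 of 58 (all lower) on the spike-in scale, 6 of 72 with no filter, 1 at a mean CPM of 5, 9 at 1.5-fold and 1 with at least 100 counts in both; with total counts it was 3, of which 1 was lower. Spike-in scaling turned the module median to -0.57 with all genes at -0.88; spike-ins held 459424 counts in replicate 2 and 302067 in replicate 1, and the cause was not tested. The summed level of 350 TPM was 1295 TPM rescaled to protein-coding genes, 759 TPM in the second transcript file and 1293 TPM rescaled there. With each replicate left out it ranged from 312 to 388 TPM, and members at 1 TPM from 35 to 36; other settings gave 32 to 42.

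In the second transcript file Snap25 over Snap23 was 0.351, Vamp2 over Vamp8 1.17 and Unc13a over Unc13b 0.488. With 1 added to TPM, Cplx2 over Cplx1 was 3.81, Cadps over Cadps2 2.53 and Unc13a over Unc13b 0.692. With each replicate left out, the pairs ranged from 0.515 to 0.667 (Snap25 over Snap23), 1.12 to 1.13 (Vamp2 over Vamp8), 1.69 to 2.74 (Rab3a over Rab3d), 7.65 to 9.49 (Cplx2 over Cplx1), 5.0 to 5.8 (Cadps over Cadps2), 0.330 to 0.596 (Syt1 over Syt7) and 0.587 to 0.628 (Unc13a over Unc13b). No pair crossed 1 in the second transcript file. Adding 1 to TPM cannot move a ratio within a library across 1, and leaving out a replicate restates the ratio in the other library. Leading transcripts shared by the libraries numbered 36 by counts, 36 among coding transcripts and 32 in the second file, against 37. No paired analysis was possible because there is only 1 group. Depth limits the members with few counts, such as Syt2, Syt6, Sv2b, Rims1 and Syt13.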
